A study of Mus musculus with 4 samples.

Results

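The 35 genes described here encode the vacuolar proton pump (V-ATPase), proteins of the lysosome membrane and lumen, and the transcription factors that regulate them. They were chosen as a list of symbols, with earlier results of these data known. Shares of members that passed are therefore set beside those of all genes as a description. All 35 were found among the 32227 genes of the feature lists. Single-cell RNA sequencing counted their RNA in epithelium from the ileum and the jejunum of 2 wild-type mice at postnatal day 6, in 4 libraries, 2 per region. Both segments came from each mouse, so replicate 1 of both regions is the mouse labelled male in batch 1 and replicate 2 is the mouse labelled female in batch 2. The labels name no treatment or transgene, and the wild-type line of the study is C57BL/6J. With 2 mice, the mouse, its labelled sex and its batch are the same split and cannot be told apart.

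The V-ATPase is a rotary motor. Its cytosolic V1 sector, built of the A to H subunits, splits ATP, and its membrane V0 sector, built of the a, c, c″, d and e subunits with accessory proteins, carries protons into the lysosome. Several subunits exist as isoforms encoded by separate genes, and the a isoforms are known to direct the pump to different membranes. The acid lumen drives hydrolases and the export of amino acids, cholesterol and ions through membrane carriers. Before weaning, enterocytes of the distal small intestine hold a large digestive vacuole that degrades milk protein taken up by endocytosis. TFEB, TFE3 and MITF are related transcription factors that activate lysosomal and V-ATPase genes.

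After limits on genes and mitochondrial share, 30521 cells were kept (ileum replicates 7300 and 8502, jejunum replicates 8997 and 5722). Median counts of unique molecular identifiers (UMIs, each standing for 1 captured RNA molecule) per kept cell were 12047.5 and 10916 in the ileal libraries but 4690 and 5884 in the jejunal ones, and median mitochondrial shares were 3.61% and 3.74% against 6.37% and 9.94%. Clusters named from marker genes gave 24942 enterocyte-like and 1871 stem/progenitor-like cells. All 11 enterocyte markers were present in the enterocyte-like sums of every library, in which no more than 1 of the 10 immune markers was at 0. The class was named with these enterocyte markers, so their presence does not test the name. Xist was at 575 and 466 CPM (UMIs of a gene scaled to the same total in each sum) in the libraries labelled male and at 0.705 and 0.907 in those labelled female, while the Y-linked Eif2s3y was at 0.0115 and 0.119 against 88.1 and 67.02, so all 4 libraries go against their sex label. Both mice are present in each region, and the comparison of regions does not use that label. No barcode was shared between kept cells of any pair of libraries.

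The regulators TFEB and TFE3 bind palindromes that contain the letters CACGTG. The promoter table of RefSeq, on the assembly GRCm38.p6, held 28 of the 35 members as windows from 250 bases before the start of the gene to 50 bases after it. Members without an entry were Atp6v0a2, Atp6v0d2, Atp6v1b2, Atp6v1c1, Atp6v1g1, Atp6v1h and Npc1. CACGTG, which reads the same on both strands, was found in 7 of these 28 windows (25%), against 8.09% of 27025 symbols in the table and 10.7% of the 14232 symbols that were also tested in enterocyte-like cells. The longer TCACGTGA, which contains the shorter motif, was found in 5 members (17.9%) against 1.12% of all symbols and 1.8% of those tested in enterocyte-like cells. A match is a description of the letters in the window and not a bound site. The stretches around the motif are shown for 5 members whose levels are described below, from 5′ to 3′ along the gene and with CACGTG in capitals.
Lamp1, chr8:13159070-13159180, plus strand: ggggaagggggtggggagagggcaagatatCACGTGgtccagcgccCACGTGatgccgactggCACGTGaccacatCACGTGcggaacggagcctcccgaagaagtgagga
Mcoln1, chr8:3500418-3500509, plus strand: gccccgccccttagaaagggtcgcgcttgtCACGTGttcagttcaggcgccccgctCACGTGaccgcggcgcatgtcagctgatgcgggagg
Atp6v0b, chr4:117887312-117887395, minus strand: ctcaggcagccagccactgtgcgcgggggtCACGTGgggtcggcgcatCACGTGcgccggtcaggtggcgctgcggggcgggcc
Atp6v0d1, chr8:105566045-105566097, minus strand: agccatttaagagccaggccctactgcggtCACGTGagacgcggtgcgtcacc
Atp6v0e, chr17:26676369-26676415, plus strand: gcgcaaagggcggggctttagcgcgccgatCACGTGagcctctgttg
In Lamp1 the letters occurred 4 times, with first bases at -61, -45, -28 and -15 from the start of the gene. Mcoln1 held the motif at -71 and -45, Atp6v0b at -36 and -18, Atp6v0d1 at -3 and Atp6v0e at 4. The window of Atp6v0d1 was marked as without a matching transcript, unlike the other windows shown. The other members with the motif were Atp6v1a and Clcn7. No match lay in the windows of Npc2, Cd63 and Atp6v1f.

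In enterocyte-like cells the members ranged from near 0 to about 991 CPM. UMIs were summed over the enterocyte-like cells of each library, which gave 40336273 to 88534791 UMIs per library, and levels are given as CPM of that sum. A UMI is counted once per molecule from its 3′ end, so no length scaling was applied. Of the 35 members, 3 had a mean of 500 CPM or more, 20 lay between 100 and 500, 6 between 20 and 100 and 6 under 20. In the order ileum replicate 1, ileum replicate 2, jejunum replicate 1 and jejunum replicate 2, Atp6v0c, the proteolipid whose copies form the proton-carrying ring, was at 964, 1075, 973 and 951 CPM. Lamp1, a heavily glycosylated protein that coats the inside of the lysosome membrane, was at 931, 1041, 962 and 880 CPM. For both genes the regions overlapped. Pseudogenes of Atp6v0c are annotated and Lamp1 overlaps Grtp1 on the opposite strand, so their counts could include or lose reads. Lamp2, its relative with a role in chaperone-mediated autophagy, was at 524, 494, 407 and 382 CPM, with both ileal libraries above both jejunal ones.

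**Figure D1:**
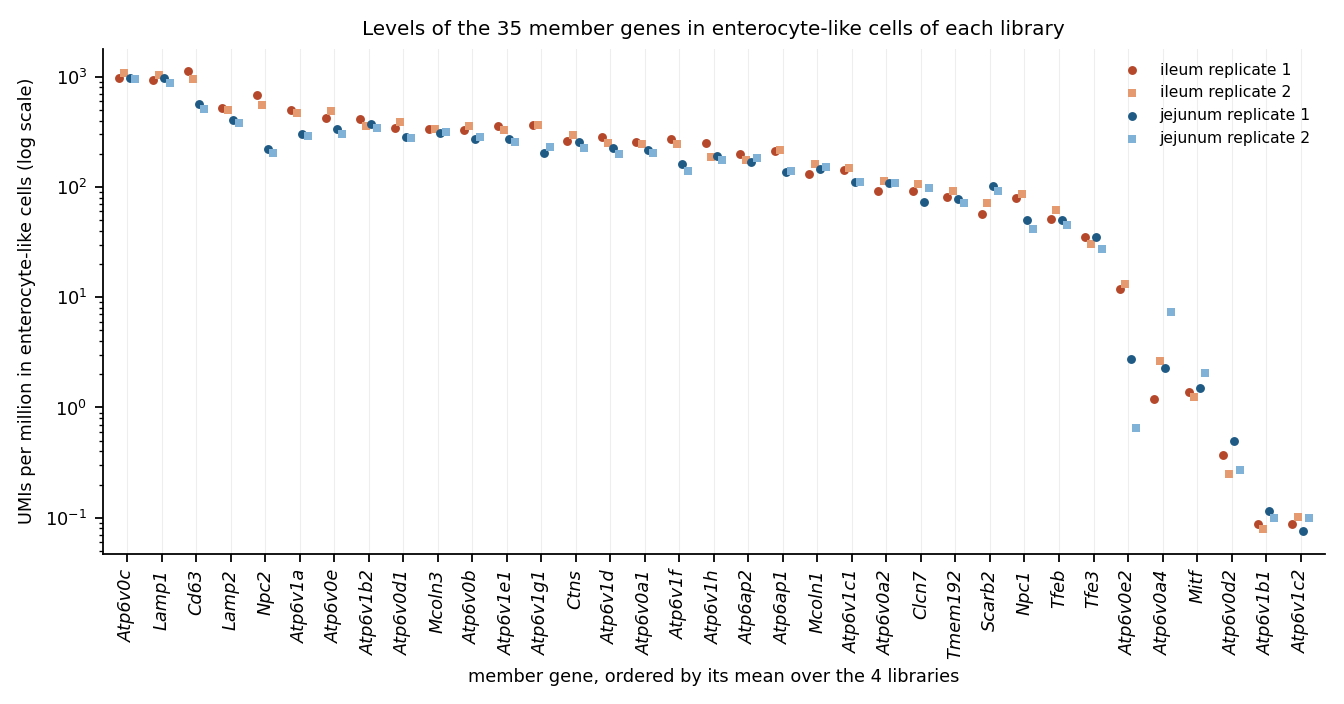
CPM of each of the 35 members (logarithmic axis) in the summed enterocyte-like cells, with 1 point for each library and the members ordered by their mean over the 4 libraries. Atp6v0c and Lamp1 lead at means of 991 and 954 CPM, Npc2 and Cd63 separate the ileal from the jejunal points, and Atp6v1b1 and Atp6v1c2 lie near 0.1 CPM.

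The regulators among the members were low. Tfeb was measured at 45.4 to 61.3 CPM and Tfe3 at 27.5 to 35.4 CPM, while Mitf was at 1.25 to 2.03 CPM. Tfec, a related factor that is not a member, was not low. It was at 553, 662, 559 and 530 CPM in the same order of libraries. The isoforms Atp6v1b1, Atp6v1c2 and Atp6v0d2 were close to absent from enterocyte-like cells. Atp6v1b1, the B isoform of kidney and inner ear, had 7, 7, 6 and 4 UMIs in the 4 enterocyte-like sums and 0 in each of the stem/progenitor-like sums, where a count of 0 allows up to 0.997 CPM. Atp6v1c2 had 7, 9, 4 and 4 UMIs and Atp6v0d2, the osteoclast d isoform, had 30, 22, 26 and 11. This limit and the intervals given later cover counting error only.

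Whether the region changes the expression of the pump and the lysosome membrane was first asked in enterocyte-like cells. The cholesterol carrier Npc2, the tetraspanin Cd63, the V1 subunit gene Atp6v1f and the cholesterol exporter Npc1 were higher in the ileum. Of 33 members tested, 4 passed (12.1%) and all 4 were higher in the ileum, while 6.79% of the 19590 genes tested passed in either direction and 3.96% passed as higher in the ileum. The median log2 difference, ileum minus jejunum, was 0.13 over the members and -0.01 over all genes. The test was the quasi-likelihood test of edgeR, with p-values adjusted by Benjamini-Hochberg over every gene tested and 0.05 as the threshold. The remaining 29 members did not pass, and Atp6v1b1 and Atp6v1c2 were too low to be tested.

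Npc2, the soluble lysosomal protein that hands cholesterol to the membrane, had 683 and 553 CPM in the ileum but 220 and 201.5 CPM in the jejunum. Both ileal libraries were far above both jejunal ones. Its log2 difference was 1.44 ± 0.15 (SE, 2 libraries per region, edgeR adjusted p = 0.0172), with 1.51 in the first mouse and 1.36 in the other.

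Npc1 is the membrane protein that receives this cholesterol and passes it out of the lysosome. Its levels were 79.4 and 87.0 CPM in the ileum against 50.1 and 41.5 CPM in the jejunum. The regions did not overlap, and the log2 difference was 0.76 ± 0.15 (SE, edgeR adjusted p = 0.0497), just inside the threshold. Npc1 overlaps the genes Rmc1 and Gm15956 on the opposite strand in the annotation GENCODE M21, and whether the counting used strand is not given in the sources used here.

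Cd63 marks late endosomes and lysosomes and is sorted into their internal vesicles. Ileal levels of 1113 and 952 CPM stood against jejunal levels of 561 and 513 CPM. All ileal values exceeded all jejunal values, and the log2 difference was 0.83 ± 0.14 (SE, edgeR adjusted p = 0.0343). A pseudogene copy, Cd63-ps, is annotated, so reads of the gene could be split.

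Atp6v1f encodes subunit F of the V1 stalk. Levels were 272 and 247 CPM in the ileum against 161 and 138 CPM in the jejunum, without overlap. The log2 difference was 0.68 ± 0.13 (SE, edgeR adjusted p = 0.0459).

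These calls rested on few libraries. Without ileum replicate 1 no member passed at an adjusted p under 0.05 by edgeR, and Npc2 then had an adjusted p of 0.0582, while 4003 of all genes had an unadjusted p under 0.05 and 93 passed. Of the 4 calls, Npc2 alone held without ileum replicate 2 and without jejunum replicate 2, and Npc2 and Cd63 held without jejunum replicate 1. Npc1 and Atp6v1f were lost in each of these fits. Members that passed there but not with all libraries were Atp6v0e2 without either jejunal replicate, higher in the ileum, and Atp6v0a4 without jejunum replicate 1, lower in the ileum. In such fits the lone library of a region is assumed to vary like the pair of the other. The 4 calls kept their sign under all alternatives, but some were lost by edgeR under other settings. Npc1 missed the threshold with cells thinned to 2000 UMIs, without the highest 6% of doublet scores and with no filter on low counts (edgeR adjusted p = 0.0519, 0.0508 and 0.0633). Atp6v1f missed it with no filter (edgeR adjusted p = 0.0553), and Cd63 among cells with a mitochondrial share under 10% (edgeR adjusted p = 0.0508).

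Because both regions came from the same mice, the fit with the mouse as a block is given beside these calls. With this block 10 members passed, 8 of them toward the ileum and 2 toward the jejunum, while 16.4% of all genes passed. The 4 genes above remained among them. Added to them in the ileum were Atp6v0e2 (log2 difference 2.93 ± 0.52, SE), Atp6v1g1 (0.65 ± 0.11), Atp6v1a (0.58 ± 0.11) and Atp6ap1 (0.52 ± 0.11), with blocked edgeR adjusted p-values of 0.0215, 0.0203, 0.0255 and 0.0318. Atp6v1a is the catalytic A subunit, Atp6v1g1 a part of the peripheral stalk and Atp6ap1 the accessory protein Ac45 of the V0 sector. Added in the jejunum were Scarb2 (-0.71 ± 0.15, SE, blocked edgeR adjusted p = 0.0357) and Atp6v0a4 (-1.34 ± 0.23, adjusted p = 0.0195). Atp6v0a4 overlaps Tmem213 and Gm23231 on the opposite strand and D630045J12Rik on the same strand, so its low counts could include or lose reads.

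Scarb2 encodes LIMP-2, a lysosome membrane protein that also carries glucocerebrosidase to the lysosome. It ran against most members, with ileal levels of 56.3 and 71.0 CPM below jejunal levels of 101 and 91.2 CPM. Without the block its log2 difference was -0.70 ± 0.18 (SE, edgeR adjusted p = 0.0771).

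**Figure D2:**
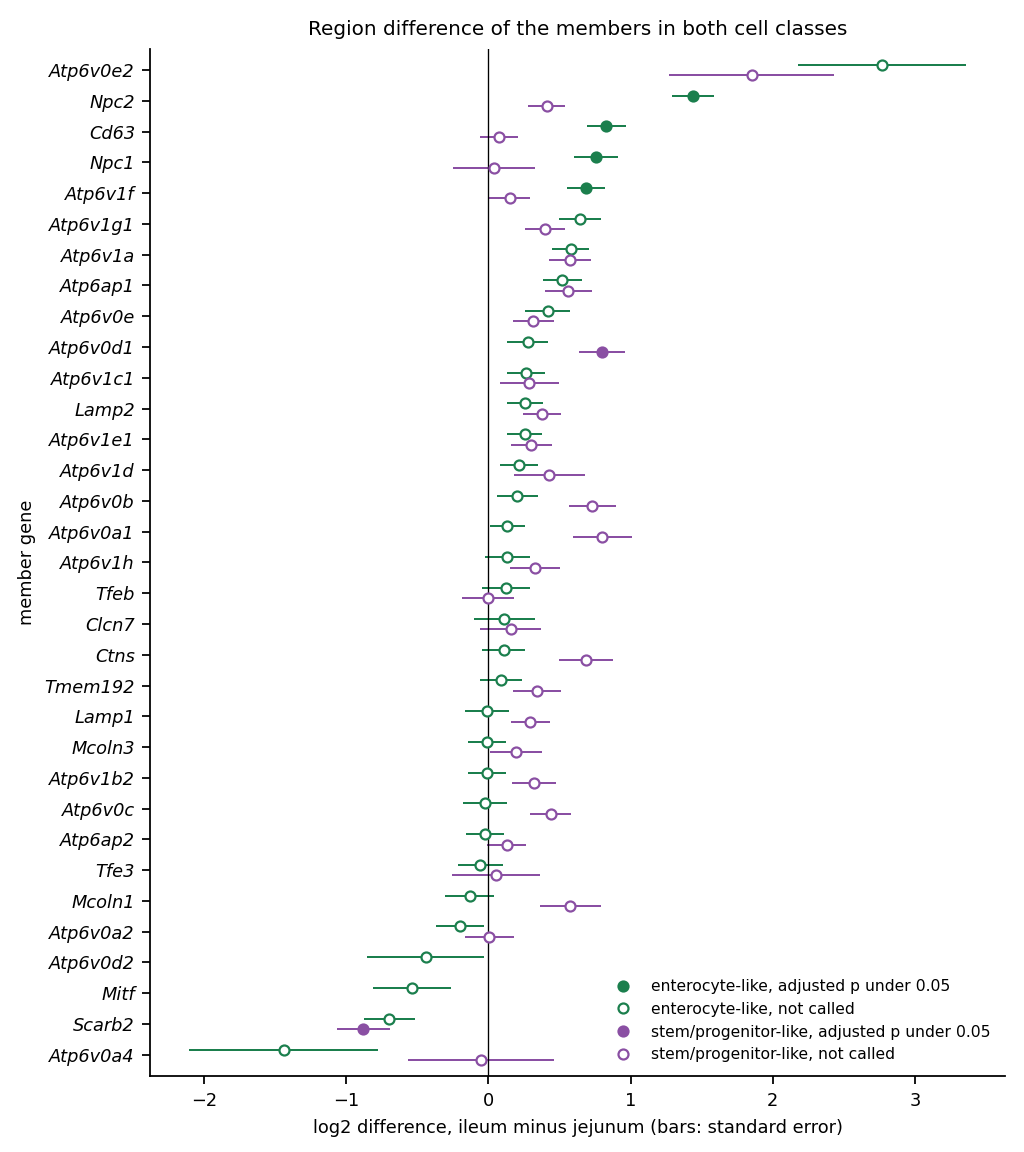
The log2 difference between ileum and jejunum with its standard error for each member tested, in enterocyte-like cells (green) and stem/progenitor-like cells (purple), from fits over 2 libraries per region. Filled points passed at an adjusted p under 0.05, which were Npc2, Cd63, Npc1 and Atp6v1f in enterocyte-like cells and Atp6v0d1 and Scarb2 in stem/progenitor-like cells.

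In the plot of region differences the 8 V1 subunits that were tested ranged from -0.01 to 0.68 in enterocyte-like cells, and 7 of the 8 estimates were above 0. The 9 V0 subunits ranged from -1.44 to 2.77, with Atp6v0a4 at the lower and Atp6v0e2 at the upper end. Atp6v0b (344 and 277 CPM as region means) and Atp6v0d1 (345 and 384 CPM in the ileum, 283 and 276 CPM in the jejunum) had higher means in the ileum but differences of 0.20 ± 0.14 and 0.28 ± 0.15 (SE) that did not pass. The carriers Ctns, which exports cystine, and Clcn7, which exchanges chloride for protons, differed by 0.11 ± 0.15 and 0.11 ± 0.22 (SE), and Tmem192 by 0.09 ± 0.15.

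In CPM, both ileal libraries lay above both jejunal libraries in 20 of the 33 members and below in 2. Of all genes tested, 37.5% had both ileal libraries above and 24.3% had both jejunal libraries above. The edgeR scaling by TMM factors moved every gene against CPM, with a median over all genes of 0.10 from library totals alone and -0.01 with the factors. With library totals, 27 of 33 members had a positive estimate against 21 with TMM, so the sign of 6 members (Lamp1, Mcoln3, Atp6v1b2, Atp6v0c, Atp6ap2 and Tfe3) depends on the scaling. The 4 called genes were positive under both.

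Cells of the enterocyte-like class were spread unevenly over its clusters. The cluster led by Reg3g held 505 and 372 ileal but 8 and 4 jejunal cells, and the cluster led by Serpina1a held 392 and 319 ileal and 1385 and 1089 jejunal cells. The region differences above are therefore averages over cell mixtures that differ, and the part of the mixture was not tested. Markers of other cells moved with the region too. The 8 goblet markers summed to 186 and 159.9 CPM in the ileal and 76.6 and 70.7 CPM in the jejunal enterocyte-like sums, with none at 0. The 10 immune markers summed to 265 and 226 CPM in the ileal and 138 and 83.9 CPM in the jejunal enterocyte-like sums, with at most 1 of them at 0, and the 11 enterocyte markers summed to 18350 and 20770 CPM against 37420 and 39080 CPM. Their part in the differences was not tested.

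In stem/progenitor-like cells most members also had positive estimates. Of 31 members tested, 28 had a log2 difference above 0, with a median of 0.32 over the members and 0.00 over all genes. Of these members 2 passed (6.45%), beside 2.65% of the 12750 genes tested. Each sum held 3009907 to 3521910 UMIs from 431 to 493 cells, so these levels are less precise than those of enterocyte-like cells.

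Atp6v0d1 encodes the d subunit that couples the V0 ring to the central stalk. In stem/progenitor-like cells its ileal levels were 101 and 81.4 CPM and its jejunal levels 52.7 and 49.4 CPM. All ileal values were above the jejunal ones, and the log2 difference was 0.80 ± 0.16 (SE, edgeR adjusted p = 0.0334). With cells thinned to 2000 UMIs it was 0.36 and did not pass (edgeR adjusted p = 0.585). It also missed the threshold without ileum replicate 1 (0.66, adjusted p = 0.171) and without jejunum replicate 2 (0.75, adjusted p = 0.160) by edgeR. The same held without the highest 6% of doublet scores (0.58, edgeR adjusted p = 0.134) and with clusters at resolution 0.5 (0.83, edgeR adjusted p = 0.0595).

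Scarb2 was lower in the ileum, at 48.8 and 47.2 CPM against 71.8 and 99.95 CPM. Its log2 difference was -0.88 ± 0.19 (SE, edgeR adjusted p = 0.0419). It did not pass without ileum replicate 1, ileum replicate 2 or jejunum replicate 2 (edgeR adjusted p = 0.101, 0.0733 and 0.200). No member passed by edgeR without ileum replicate 1 or without jejunum replicate 2, where 1420 and 1346 genes had an unadjusted p under 0.05, and without ileum replicate 2 Atp6v0d1 passed together with Ctns and Atp6v0a1.

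With the mouse as a block, 9 members passed in stem/progenitor-like cells, while 8.42% of all genes passed. The 8 higher in the ileum were Atp6v0d1, Atp6v0a1, Atp6v0b, Ctns, Atp6v1a, Atp6ap1, Atp6v0c and Npc2, with blocked log2 differences from 0.41 to 0.79, and Scarb2 was lower (-0.86 ± 0.15, SE, blocked edgeR adjusted p = 0.0033). Of these genes 4 encode V0 subunits, which form the membrane ring and its contacts. In CPM both ileal libraries lay above both jejunal ones in 23 of 31 members, against 26.3% of all genes.

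Marker levels in these sums moved with the region. In CPM, the enterocyte markers were lower in the ileum (4652 and 4755 against 7059 and 7576), as were the 15 stem/progenitor markers (4931 and 4546 against 6476 and 6390). The 10 immune markers were higher there (70.2 and 39.5 against 25.8 and 18.7, with 2 or 3 at 0), as were the 12 enteroendocrine markers (77.8 and 57.1 against 29.7 and 21.9, with at most 1 at 0). The summed level of the 11 enterocyte markers in stem/progenitor-like cells was 25.4% and 22.9% of that in enterocyte-like cells in the ileal libraries, against 18.9% and 19.4% in the jejunal ones. The part of these markers in the region differences was not tested. The corresponding ratio, taken as the median over members above 20 CPM, was 29.0%, 27.5%, 29.9% and 28.1% in the order of libraries given above.

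The difference between the 2 classes in their region effect was tested directly. Of 33 members, 7 passed (21.2%), beside 9.39% of 18970 genes. Npc2, Cd63 and Atp6v1f had a more positive ileum minus jejunum difference in enterocyte-like cells, and Atp6v0a1, Atp6v0b, Atp6v0a4 and Mcoln1 a more positive one in stem/progenitor-like cells.

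Npc2 was at 242, 224, 171 and 170 CPM in stem/progenitor-like cells, so the gap between the regions there was smaller than in enterocyte-like cells. The difference of the region effects was 1.02 ± 0.15 on the log2 scale (SE, edgeR adjusted p = 0.000347). Cd63 was at 343, 355.5, 316 and 330 CPM in stem/progenitor-like cells, where its region difference was 0.08 ± 0.13 and did not pass. The difference of effects was 0.75 ± 0.15 (SE, edgeR adjusted p = 0.0044). Atp6v1f was at 90.3, 86.7, 82.1 and 73.3 CPM there, with a difference of effects of 0.53 ± 0.15 (SE, edgeR adjusted p = 0.038).

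In the opposite direction, Mcoln1, the calcium channel TRPML1 of the lysosome membrane, had 32.3 and 28.6 CPM in ileal but 16.96 and 22.7 CPM in jejunal stem/progenitor-like cells. In enterocyte-like cells it was at 131, 160, 146 and 150 CPM with overlapping regions, and the difference of effects was -0.74 ± 0.21 (SE, edgeR adjusted p = 0.0347). Atp6v0b, the c″ proteolipid, was at 89.1, 92.4, 47.3 and 59.1 CPM in stem/progenitor-like cells against 331, 358, 273 and 281.5 CPM in enterocyte-like cells, with a difference of effects of -0.54 ± 0.16 (SE, edgeR adjusted p = 0.0384). Its gene overlaps Gm12841 on the opposite strand.

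Atp6v0a1 was at 74.1, 49.8, 36.7 and 32.7 CPM in stem/progenitor-like cells and at 256, 245, 218 and 205 CPM in enterocyte-like cells. Its difference of effects was -0.66 ± 0.19 (SE, edgeR adjusted p = 0.0354). Atp6v0a4 was at 7.93, 18.9, 6.66 and 20.2 CPM in stem/progenitor-like cells and at 1.18, 2.62, 2.29 and 7.31 CPM in enterocyte-like cells, where it was higher in the second mouse in both regions (difference of effects -1.41 ± 0.34, SE, edgeR adjusted p = 0.0162).

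With the mouse and its interaction with class as terms, Npc2 alone passed by edgeR (adjusted p = 0.0221), beside 1.69% of all genes. Npc2 passed under all 12 alternatives run on this comparison and Atp6v0b under 2 of them. Of the 7 calls, 1 held without ileum replicate 1, 3 without jejunum replicate 2, and 4 each without ileum replicate 2 and without jejunum replicate 1. Npc1 passed in both of the latter fits and Ctns without ileum replicate 2, neither of which passed with all libraries. Scaled by library totals, 4 differences were more positive in enterocyte-like cells and 1 was more negative, against 3 and 4 with TMM. Over all genes it was 1336 and 732 against 907 and 875. Without the highest 6% of doublet scores, 4 were more positive and 2 more negative, beside 1989 of 18723 genes that passed. Atp6v0a1 and Atp6v0b did not pass there. The median over the members was then 0.0008, against -0.16 with all cells. With DESeq2, 3 were more positive and 1 more negative, beside 1299 of 18970 genes.

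Isoform use was described as the share of each isoform among the UMIs of its subunit family. In each of the families B, C, d, E and G a single isoform held over 99% of UMIs in enterocyte-like cells of every library. Atp6v1b2 held at least 99.97%, Atp6v1c1 at least 99.91%, Atp6v0d1 at least 99.82%, Atp6v1e1 at least 99.99% and Atp6v1g1 at least 99.58%. The a subunit and the mucolipins were mixed, as the plot of isoform shares shows. With 2 libraries against 2, the exact permutation test cannot go below p = 0.333, so no share can pass, and 19 shares were compared.

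The a subunit forms the proton path of V0 and sets the pump's location. Atp6v0a1 held 58.9% and 53.3% of the family's UMIs in the ileal libraries, against 50.3% and 48.45% in the jejunal ones. Its mean share was higher by 6.72 percentage points in the ileum without overlap (exact permutation p = 0.333, two-sided, adjusted p = 0.792). Atp6v0a2, known from the Golgi and endosomes, held 21.2%, 24.6%, 25.3% and 25.8%. Tcirg1, the a3 isoform of lysosomes and osteoclasts, is not a member but completes the family and held 19.6%, 21.5%, 23.9% and 24.05%. Atp6v0a4, the isoform of acid-secreting kidney cells, held 0.273%, 0.570%, 0.530% and 1.73%.

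In stem/progenitor-like cells the a family was divided more evenly. Atp6v0a1 held 40.9%, 29.3%, 26.5% and 20.5%, below its enterocyte-like share in each library, and Atp6v0a2 held 32.2%, 36.3%, 37.3% and 40.7%, above it. Atp6v0a4 held 4.38%, 11.1%, 4.83% and 12.7%, with the larger values in the second mouse.

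The e subunit is a small membrane protein with 2 isoforms. Atp6v0e2 was at 11.8 and 13.1 CPM in ileal but 2.73 and 0.645 CPM in jejunal enterocyte-like cells, and its share of the family was 2.70% and 2.62% against 0.811% and 0.213%. All ileal values exceeded the jejunal ones (exact permutation p = 0.333, two-sided, adjusted p = 0.792). Atp6v0e, the major isoform, was at 426, 487, 334 and 301 CPM. In the fit across genes Atp6v0e2 had a log2 difference of 2.77 ± 0.59 (SE, edgeR adjusted p = 0.0536), and its jejunal libraries held 143 and 26 UMIs.

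Mucolipins are cation channels of endosomes and lysosomes, and Mcoln3 is known from the vacuoles of neonatal enterocytes. Mcoln3 was at 334, 333, 305 and 315 CPM and held 71.9%, 67.5%, 67.7% and 67.7% of the UMIs of the pair with Mcoln1. Its share differed between the regions by 2.00 percentage points (exact permutation p = 1.0, two-sided), and without ileum replicate 1 the sign of that difference turned (-0.18), as it did within the second mouse (-0.21). The remaining isoform genes in enterocyte-like cells were Atp6v1b2 at 416, 353, 373.5 and 342 CPM, Atp6v1c1 at 141, 147, 111 and 111 CPM, Atp6v1e1 at 354, 327, 271 and 258 CPM, and Atp6v1g1 at 362, 366, 203 and 229 CPM.

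**Figure D3:**
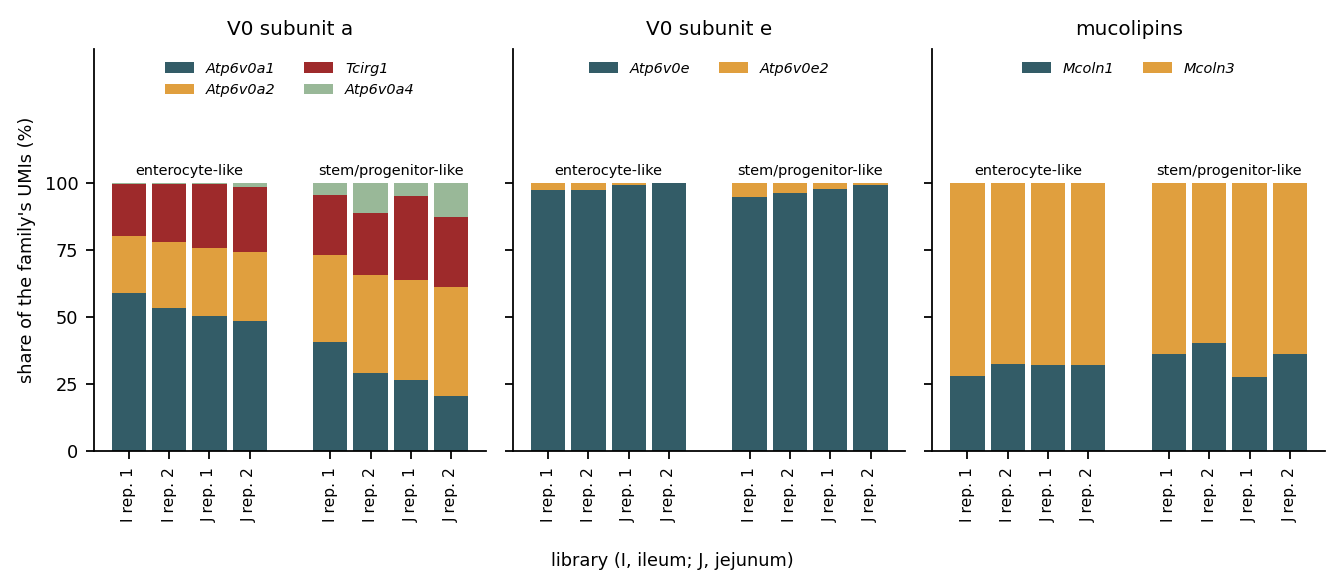
Share of each isoform among the UMIs of its family, in percent, stacked for each library (I for ileum, J for jejunum) in enterocyte-like and stem/progenitor-like cells. Atp6v0a1 takes 48.45% to 58.9% of the a family in enterocyte-like cells and 20.5% to 40.9% in stem/progenitor-like cells, and Mcoln3 is the larger of the mucolipins in every bar.

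Between the classes, nearly all members were higher in enterocyte-like than in stem/progenitor-like cells. This is a description without a test, since the classes come from clusters of the same cells. In 28 of 33 members the enterocyte-like CPM was above the stem/progenitor-like CPM in all 4 libraries, against 20.9% of 18970 genes, and it was below in all 4 for Atp6v0a4 and Atp6v0d2. The median log2 ratio was 1.53 over the members and -0.34 over all genes, with 1 CPM added to both levels.

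The ratio was highest for the mucolipins. Mcoln3 had a log2 ratio of 2.79 ± 0.20 (SD, n = 4 libraries) and Mcoln1 of 2.53 ± 0.44. Ctns followed at 2.44 ± 0.37 and Atp6v0a1 at 2.30 ± 0.38. The SDs of these 4 overlap, so their order is not resolved. Lamp1 had a log2 ratio of 2.06 ± 0.22 and Lamp2 of 1.90 ± 0.03.

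Members near the low end were Atp6ap2, the accessory protein also called the prorenin receptor, at 0.40 ± 0.05 and Scarb2 at 0.29 ± 0.32 (SD, n = 4), with Scarb2 below 0 in jejunum replicate 2. Npc2 split by region, with 1.49 and 1.30 in the ileal libraries, against 0.36 and 0.24 in the jejunal ones. The regulators Tfeb and Tfe3 had ratios of 0.94 ± 0.17 and 0.80 ± 0.38.

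**Figure D4:**
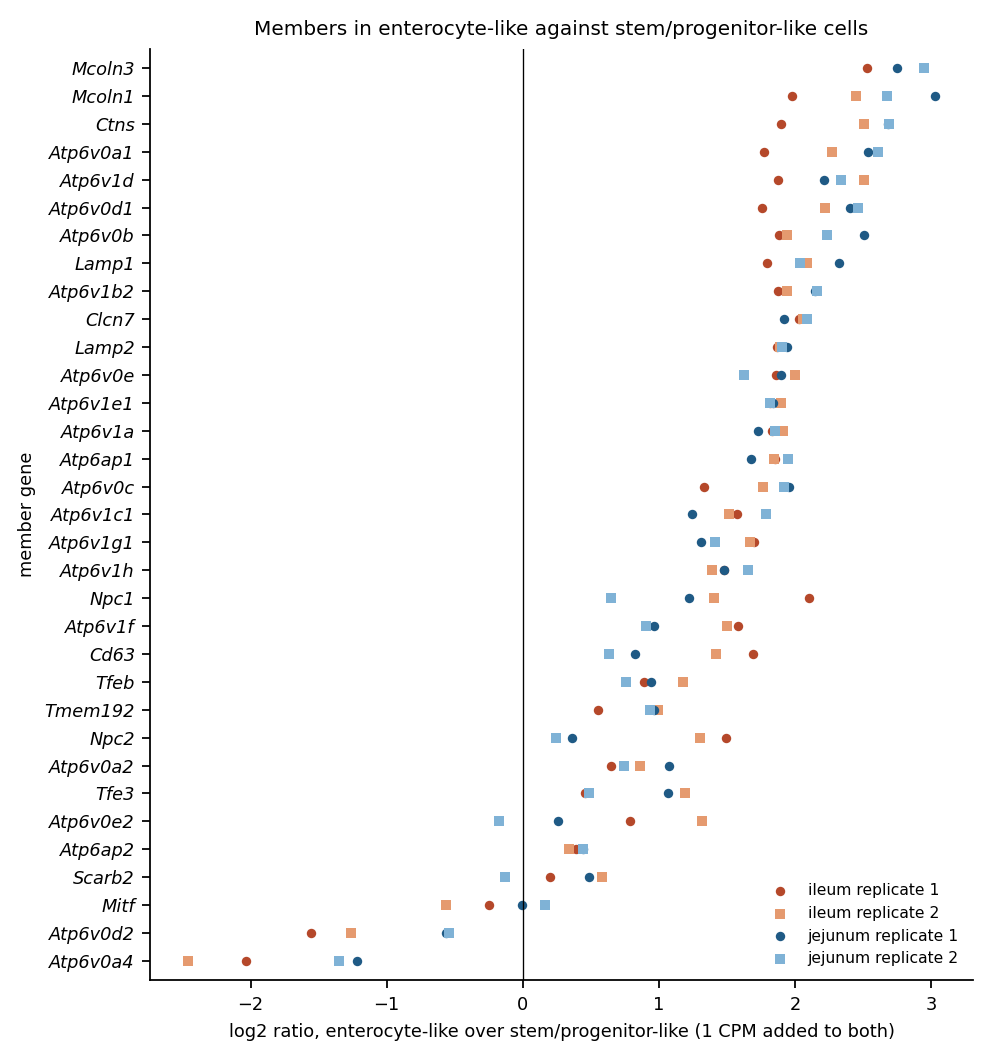
The log2 ratio of enterocyte-like over stem/progenitor-like CPM for each member, with 1 point per library. Most members lie to the right of 0 in all 4 libraries, Mcoln3 and Mcoln1 are at the top with means of 2.79 and 2.53, and Atp6v0d2 and Atp6v0a4 are at the bottom with means of -0.98 and -1.77.

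At an equal depth of 2000 UMIs per cell most members kept this order. Between 25 and 505 enterocyte-like cells per library were shallower and were left out. The mean UMIs per cell were higher in enterocyte-like than in stem/progenitor-like cells in all 4 libraries for 29 of the 35 members and lower in all 4 for Atp6v0a4. For Lamp1 they were 1.77, 2.01, 2.005 and 1.70 in enterocyte-like cells and 0.463, 0.4745, 0.391 and 0.380 in stem/progenitor-like cells. For Npc2 they were 1.23, 0.973, 0.409 and 0.370 against 0.427, 0.397, 0.310 and 0.363. Atp6v0c gave 1.91, 2.11, 2.01 and 1.89 against 0.634, 0.539, 0.489 and 0.510.

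Enteroendocrine-like cells, the hormone-secreting cells, were 46 to 74 per library. Atp6v0e2 was at 19.2, 46.3, 35.1 and 49.4 CPM there, from 6, 13, 8 and 12 UMIs, with exact Poisson 95% intervals of 7.045 to 41.8, 24.65 to 79.2, 15.2 to 69.2 and 25.5 to 86.3 CPM. The lower bound lay above the enterocyte-like level in ileum replicate 2 and in both jejunal libraries but not in ileum replicate 1. Lamp1 in these cells was at 416, 370, 347 and 251 CPM, below its enterocyte-like level in every library. The immune-like and goblet-like classes held 51 and 20 cells in all and are not described further.

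Position along the villus was approached with a score of 6 villus tip genes that are not members (Ada, Nt5e, Slc28a2, Klf4, Egfr and Apoa4), and the highest tercile of enterocyte-like cells in each library was compared with the lowest. The score is a continuous range, and 15.5% to 20.1% of cells lay within 0.05 score units of a limit. Of 32 members tested, 22 passed (68.8%), 21 higher and 1 lower in the highest tercile, while 26.4% of 15768 genes passed in either direction and 14.3% as higher. The median log2 difference was 0.24 over the members and -0.01 over all genes.

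All 11 lysosome membrane or lumen members had a positive estimate and 10 of them passed, the exception being Tmem192. Of the V1 subunits 6 of 8 passed as higher and of the V0 subunits 4 of 8. None of the 3 regulators passed, with estimates of -0.31 for Mitf, -0.12 for Tfeb and 0.09 for Tfe3. The other members that did not pass were Atp6ap2, Atp6v0a2, Atp6v0d1, Atp6v0e2, Atp6v1c1 and Atp6v1h.

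Atp6v0e was at 336.5, 418, 261.5 and 210.5 CPM in the lowest and 488.5, 536, 382 and 366 CPM in the highest tercile of the same libraries. It was higher in the highest tercile in 4 of 4 libraries, with a log2 difference of 0.61 ± 0.07 (SE, edgeR adjusted p = 0.000368). Atp6ap1 went from 168, 178, 111 and 106 to 243, 252, 156 and 167 CPM, a log2 difference of 0.60 ± 0.05 (SE, edgeR adjusted p = 0.000135). Mcoln3 was at 268, 289, 262.5 and 247 against 382, 369, 338 and 357 CPM, a difference of 0.49 ± 0.06 (SE, edgeR adjusted p = 0.000439). All 4 libraries moved the same way for these genes. Cd63 was at 863.5, 875, 461 and 383.5 against 1280, 984, 602 and 571 CPM, a difference of 0.48 ± 0.08 (SE, edgeR adjusted p = 0.0021).

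Npc2 and Npc1, which differed between the regions, were also higher in the highest tercile, by 0.28 ± 0.07 and 0.35 ± 0.06 (SE, edgeR adjusted p = 0.0165 and 0.0027). Atp6v0a4 was lower in the highest tercile in 4 of 4 libraries, at 1.77, 3.82, 2.78 and 11.9 against 0.797, 1.92, 1.86 and 4.52 CPM (-1.01 ± 0.18, SE, edgeR adjusted p = 0.0031).

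**Figure D5:**
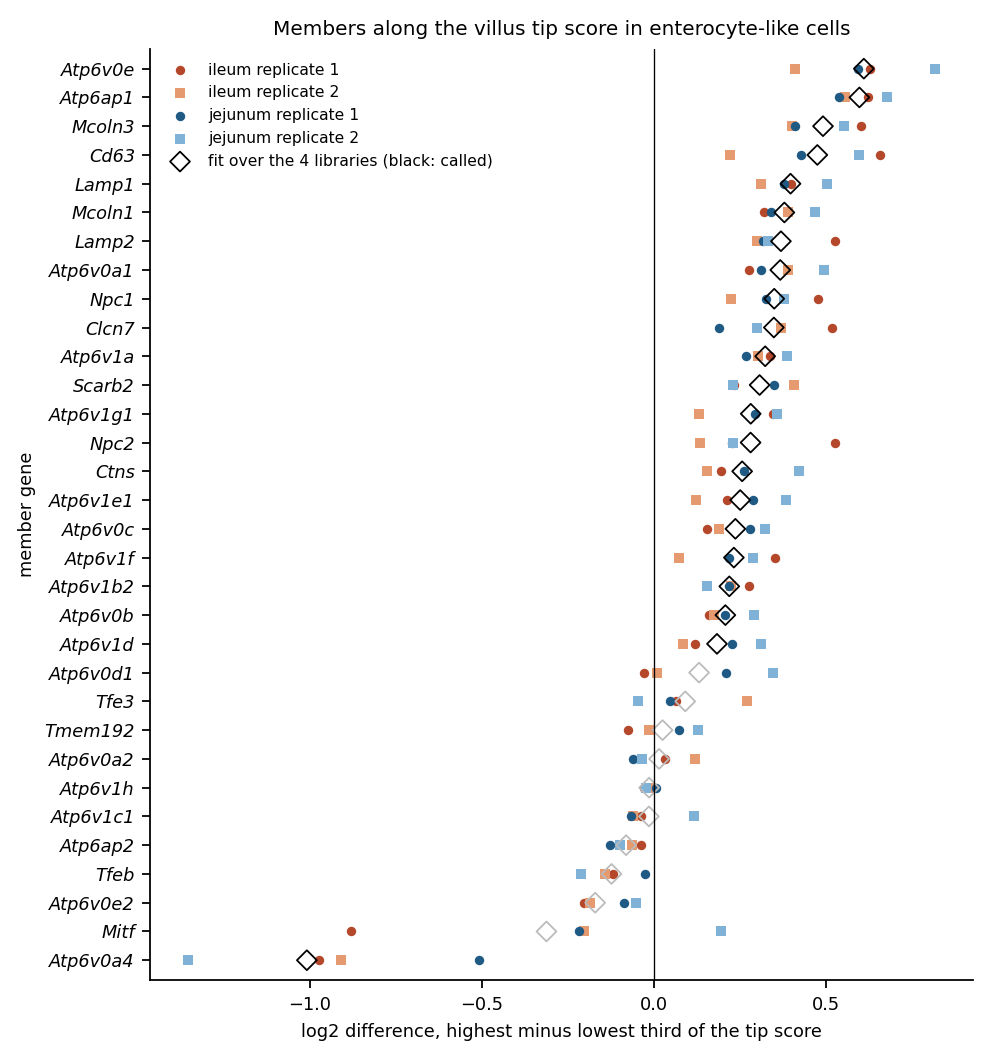
The log2 difference between the highest and the lowest tercile of enterocyte-like cells by the tip score, with 1 point per library and a diamond for the fit over the 4 libraries, drawn in black where the adjusted p was under 0.05. Atp6v0e at 0.61 and Atp6ap1 at 0.60 are at the top and Atp6v0a4 at -1.01 is at the bottom.

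Depth moved with the score. The median UMIs per cell were 9063, 10841, 3855 and 5156.5 in the lowest and 16878.5, 12971, 7048 and 8205.5 in the highest tercile. Median mitochondrial shares in the jejunum were 8.21% and 12.0% in the lowest against 4.65% and 8.12% in the highest tercile. With each cell thinned to 2000 UMIs before scoring, 17 of the 22 members passed again, and Atp6v1b2, Atp6v1d, Atp6v1e1, Atp6v1f and Atp6v0a4 did not. Over all genes 2205 of 11813 tested passed with thinned cells. The median log2 difference over the members was then 0.15, against 0.24 without thinning, so the tip differences were smaller at equal depth. Between 16 and 19 members passed when 1 library was left out, 19 and 18 without ileum replicates 1 and 2 and 16 and 17 without jejunum replicates 1 and 2. Scaled by library totals, 17 were higher and 1 lower, and over all genes 1630 and 2424 against 2249 and 1920 with TMM. Marker UMIs per cell are given as medians in the order of libraries given above, the lowest tercile first. Stem/progenitor markers were at 2, 2, 1 and 1 against 4, 3, 1 and 2. Goblet markers were at 1, 1, 0 and 0 against 3, 2, 0 and 0, and immune markers at 2, 2, 0 and 0 against 3, 2, 1 and 0. These counts are not scaled for depth, and their part in the tip differences was not tested.

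Other genes of the same pathway, from 3 further lists, were also counted, lists chosen with earlier results of these data known. Among other V-ATPase subunits and assembly factors 1 of 9 tested passed between regions in enterocyte-like cells. Among other lysosome membrane carriers, channels and proteins it was 6 of 27, and among genes of nutrient sensing at the lysosome 1 of 15. All of these were higher in the ileum. Of all genes tested, 6.79% passed in either direction and 3.96% as higher in the ileum. From the subunit list Dmxl2 passed (1.29 ± 0.14, SE), a subunit of the rabconnectin complex that assembles V1 onto V0. From the carrier list those that passed were Cd68 (2.33 ± 0.24), a macrosialin related to the LAMP proteins, Cln3 (1.21 ± 0.17), a lysosome membrane protein lost in juvenile Batten disease, Mfsd1 (1.10 ± 0.13), a dipeptide transporter, Laptm4b (0.95 ± 0.14), Tmem9 (0.89 ± 0.18) and Slc11a2 (0.69 ± 0.14), a metal ion carrier. From the sensing list Lamtor1 passed (0.79 ± 0.13), which anchors the Ragulator complex to the lysosome. Their edgeR adjusted p-values ran from 0.0175 for Cd68 to 0.0499 for Slc11a2.

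Cd68 is also a macrophage gene. Its level was 21.5 and 15.1 CPM in ileal and 3.92 and 2.80 CPM in jejunal enterocyte-like cells. The immune markers, whose sums are given above, also ran higher in the ileum, and their part in the Cd68 difference was not tested. In stem/progenitor-like cells 0 of 8 other subunits, 3 of 27 carriers and 1 of 14 sensing genes passed by edgeR, beside 2.65% of all genes. At an unadjusted edgeR p under 0.05 it was 1 of the 8 subunits. In the same cells Tfec passed at the adjusted threshold, higher in the ileum (1.04 ± 0.14, SE, edgeR adjusted p = 0.0049). Its region difference in enterocyte-like cells was 0.05 ± 0.17 (SE). The difference of effects was -1.01 ± 0.15 (SE, edgeR adjusted p = 0.000572). Along the tip score 1 of 9 other subunits, 20 of 27 carriers and 3 of 15 sensing genes passed, each higher in the highest tercile. Of all genes, 26.4% passed in either direction and 14.3% as higher.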

How the data were processed

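Single-cell RNA was measured with PIPseq in 4 libraries, 2 regions from each of 2 mice. The deposited values are whole-number UMI counts per gene and cell barcode, which the authors made with PIPseeker at sensitivity 3 on GRCm39 (build from the submitters' processing notes). The annotation and any use of strand are not given in the sources used here. Cells were kept at 1000 to 6000 detected genes and a mitochondrial share under 20%, and genes when seen in 3 or more cells. Scrublet (scanpy 1.11.5) marked 1 or 2 cells per library and so did not work, and no doublets were removed. Seurat 5.3.0 (R 4.3.3) integrated the libraries on 1999 variable genes, without the members, and clustered them on 30 components at resolution 1, giving 22 clusters. For classes other than enterocytes, a cluster needed at least 3 markers seen in 10% of its cells at a log2 fold above 1. It took the name where 1 or more markers of the class led it, and stayed unnamed where none did. A cluster without 3 such markers was enterocyte-like where 3 enterocyte markers were seen in 50% of cells with a mean log2 fold above -1. A cluster led by more markers of another class also stayed unnamed. These limits were chosen after the data were seen. Clusters left unnamed held 10.7% to 11.5% of the kept cells of a library. The largest of them, with 1536 cells, had the tip score gene Nt5e among its leading genes. Its cells were left out of the enterocyte-like sums and of the tip comparison, and the effect of this was not tested.

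UMIs were summed per library and class and tested with edgeR 4.0.16 (TMM factors, filterByExpr, quasi-likelihood test, Benjamini-Hochberg over all genes tested). DESeq2 1.42.0 was an alternative, and the scripts were tested on simulated data. Isoform shares were compared with the exact permutation test. CPM is given without TMM factors. The members and the further gene lists were chosen with earlier results of these data known. Values in every library are given for members that passed in a region comparison or between classes, for subunit families with several isoforms and for the 5 members with the highest mean level, and tercile values are examples picked for size. Both regions of a replicate number come from 1 mouse by the series' design, and deviations from the region means correlated within mice at 0.283 (enterocyte-like sums) and 0.240 (stem/progenitor-like sums). P-values of the region fits measure the spread between these libraries of 2 mice. Without the mouse as a block, these fits treat the libraries of a mouse as independent. The fits of the class difference and of the tip score hold the library as a block. Their p-values measure how differences within a library vary between libraries.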

Additional observations from a re-analysis of the deposited data

Results flagged for a closer look

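In 7 members the difference between ileum and jejunum itself differed between enterocyte-like and stem/progenitor-like cells by the edgeR interaction test. The log2 difference of the region effects was 1.02 for Npc2, 0.7477 for Cd63 and 0.5285 for Atp6v1f, with the more positive effect in enterocyte-like cells. It was -0.544 for Atp6v0b, -0.6621 for Atp6v0a1, -0.7383 for Mcoln1 and -1.411 for Atp6v0a4, with the more positive effect in stem/progenitor-like cells. With the mouse as a block only Npc2 passed. Without the highest 6% of doublet scores Atp6v0a1 and Atp6v0b did not pass.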

How the results depend on the processing

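Every called member kept its direction under all alternatives. Scaling by library totals alone was chosen after seeing the data. Among calls of single members outside the fits that leave out 1 library, 43 held and 5 were lost in enterocyte-like cells, 19 and 3 in stem/progenitor-like cells, 39 and 17 for the difference between classes and 166 and 10 along the tip score. In the fits that leave out 1 library, 4 held and 12 were lost, 3 and 5, 12 and 16, and 70 and 18, in the same order. Between regions in enterocyte-like cells DESeq2 called 3043 of 19590 genes and 9 members, against 1331 genes and 4 members in the main fit. With no filter on low counts 984 of 28670 genes and 2 members passed. With library totals it was 1781 of 19590 genes and 8 members, and over all kept cells 1526 of 20368 genes and 8 members. In stem/progenitor-like cells, against 338 of 12750 genes and 2 members, no filter gave 901 of 24290 genes and 8 members. Scarb2 alone passed, 1 member, without the highest 6% of doublet scores, with cells thinned to 2000 UMIs and with clusters at resolution 0.5. In that order, 251 of 12465, 240 of 9774 and 317 of 12371 genes passed there. For the difference between classes, 1782 of 18970 genes and 7 members passed in the main fit. DESeq2 called 1299 of 18970 genes and 4 members, and no filter 2347 of 28809 genes and 11 members. Enterocyte-like sums of equal size gave 1174 of 13223 genes and 6 members. Thinned cells gave 2205 genes along the tip score against 4169. The cause of these shifts was not tested.

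Leaving out 1 library gave 93 to 1871 genes and 0 to 4 members in enterocyte-like cells, 199 to 518 and 0 to 3 in stem/progenitor-like cells, 514 to 1563 and 1 to 6 for the difference between classes, and 2717 to 3428 genes along the tip score. The regional difference in the Mcoln3 share then ranged from -0.1802 to 4.177 percentage points. With the mouse as a block, the pairing, 3210 genes and 10 members passed in enterocyte-like cells, 1073 and 9 in stem/progenitor-like cells and 320 and 1 for the difference between classes, and within the second mouse the Mcoln3 share differed by -0.2119. With 2 mice, a member that did not pass is not shown to be equal in both regions. Jejunal cells were shallower and higher in mitochondrial share, and depth limits the low members, as Atp6v0e2 had 21, 14, 7 and 3 UMIs in the stem/progenitor-like sums.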
